A study of Mus musculus with 8 samples.

Results

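Hypoxia-inducible genes outside glycolysis are described here in the ventral prostate of wild-type mice and of mice transgenic for the polyoma virus middle T antigen (MT). The 9 genes are a list of symbols, drawn up with earlier results of these data known: the transcription factor subunit Hif1a, the oxygen sensors Egln1 and Egln3, the secreted peptides Vegfa and Adm, the carbonic anhydrase Car9, the collagen prolyl hydroxylase subunits P4ha1 and P4ha2, and the mitochondrial protein Bnip3. Every probe set that the platform annotation gives to exactly one of these symbols was taken, 16 probe sets of the 22626 on the array that are not controls. Hif1a had 4 probe sets, Egln1, Egln3, Vegfa and P4ha1 had 2 each, and the other 4 genes had 1 each. Both groups were male FVB mice aged 8 weeks, with 4 arrays of total RNA from wild-type mice and 4 from MT transgenic mice. Middle T, an oncoprotein of the virus, acts at cell membranes, and the design sets normal prostate against the prostate cancer that it induces. The promoter that drives the transgene and the number of animals behind each array are not given in the sources used here, so each p-value reflects the variation among these samples, and that variation may be technical.

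Cells sense oxygen through the stability of the HIF alpha subunits. In the presence of oxygen, prolyl hydroxylases of the EGLN family hydroxylate HIF alpha, which marks it for destruction by the VHL ubiquitin ligase, so that much of the control of HIF1A acts on the protein and is not seen in RNA. When oxygen is low, HIF alpha pairs with ARNT and binds hypoxia response elements near genes of glycolysis, blood vessel growth, pH balance, collagen maturation and mitochondrial turnover. Egln3 and, in many cells, Egln1 are themselves targets of HIF, which closes a feedback loop.

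The 9 genes did not move as a block. Egln3 rose at both probe sets, on group means by at least 1.84-fold and at least 1.44-fold over the background level described below. Bnip3 rose slightly. Egln1, Adm, Hif1a and Vegfa each had at least 1 probe set that fell, while Car9, P4ha1 and P4ha2 did not pass the test. All levels are log2 values after RMA (robust multi-array averaging), all differences are MT minus wild type, and errors of differences are standard errors of the limma fit. A probe set passed at a Benjamini-Hochberg adjusted p under 0.05 over all 22626 probe sets. Of the 16 probe sets, 3 were higher and 6 were lower in MT, against 18.1% higher and 19.7% lower among all probe sets (37.8% in either direction). The median difference of the 16 was -0.05, and that of all probe sets was -0.01. The 2 groups did not overlap at 7 of the 16 probe sets, against 37.5% of all probe sets.

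**Figure D1:**
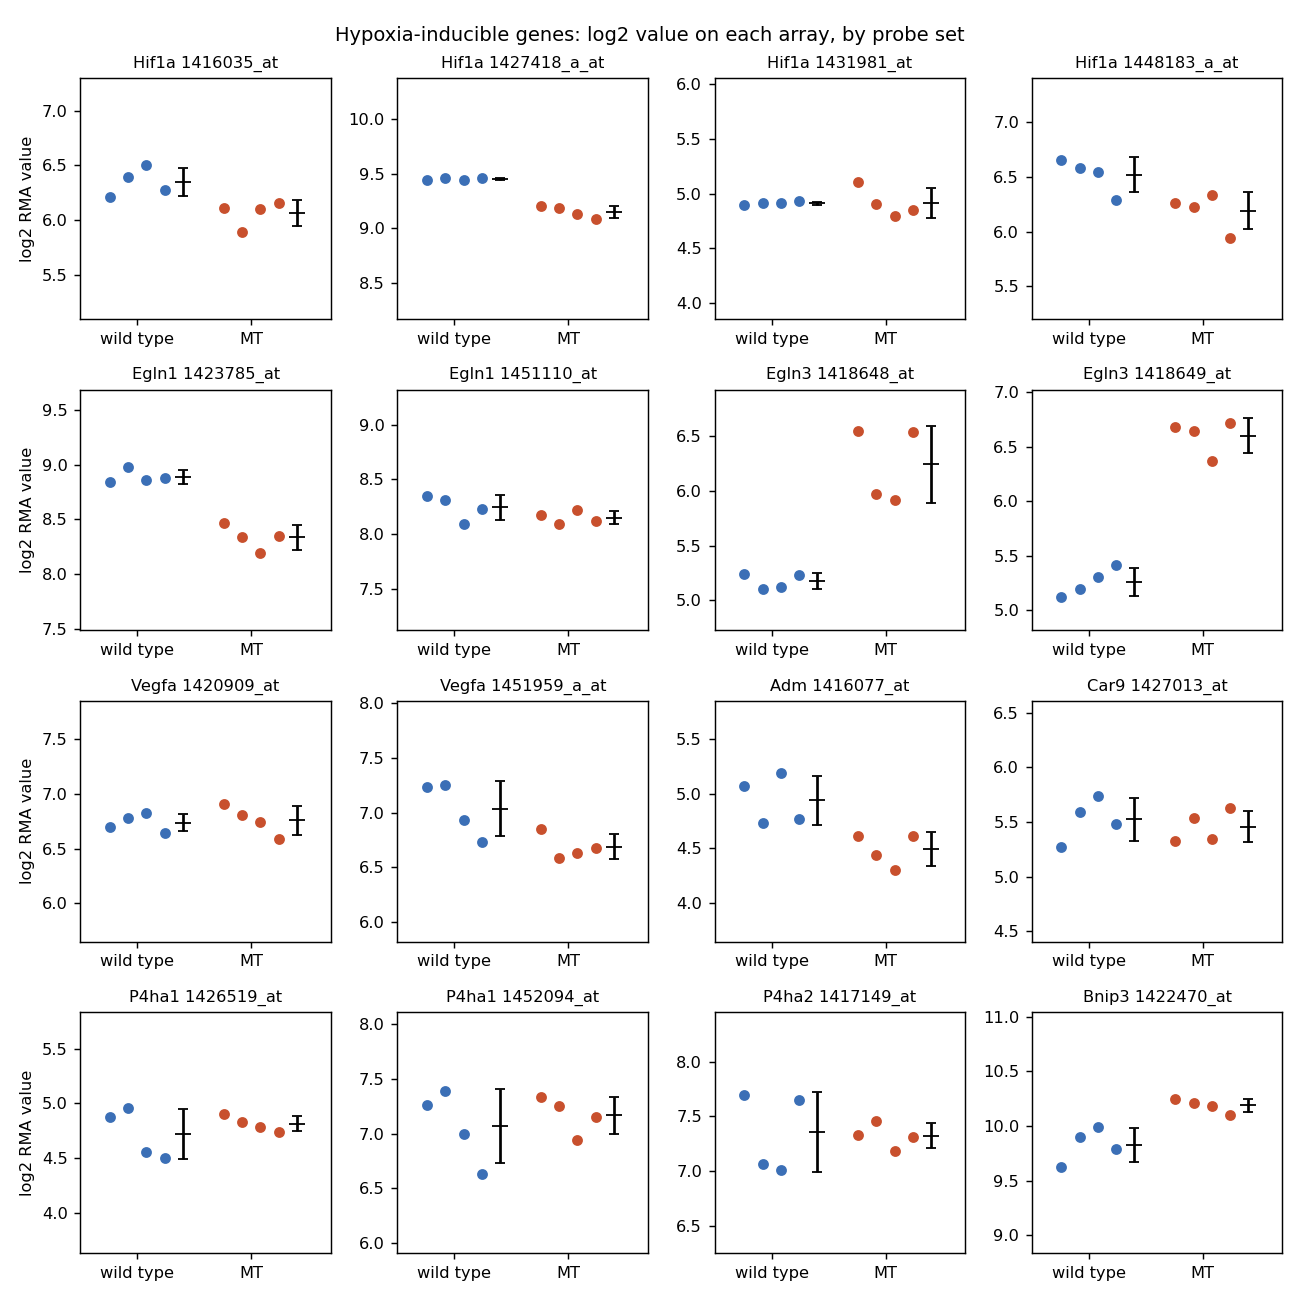
Log2 RMA value (vertical axis, each panel spanning the same height) of the 16 probe sets on the 4 wild-type arrays (blue) and the 4 MT arrays (red), with the mean and SD of each group in black; within a group, arrays 1 to 4 run from left to right. The 2 Egln3 panels and the Bnip3 panel have every MT array above every wild-type array, and the Adm panel, the first Egln1 panel and the first 2 Hif1a panels have every MT array below.

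The level of each probe set was first set against control probe sets for bacterial transcripts, since RMA values have no detection call. Of 15 such controls, 13 read between 2.81 and 3.72 over the 8 arrays, 1 read between 3.99 and 4.55, and 1, for a phe transcript, read between 5.55 and 5.86. Every value of the 16 probe sets was above the second highest control of its array. The highest control was not exceeded on any array by Adm, by 1 probe set of Hif1a (1431981_at) and by 1 of P4ha1 (1426519_at), on 7 of 8 arrays by Car9, and on the 4 wild-type arrays by either Egln3 probe set. These low probe sets may therefore carry a large part of background signal, and their fold changes may be understated.

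Egln3, the prolyl hydroxylase that hypoxia induces most widely, had the largest difference among the 9 genes. At the probe set 1418649_at it read 5.12, 5.20, 5.30 and 5.41 on wild-type arrays 1 to 4, and 6.68, 6.64, 6.37 and 6.72 on MT arrays 1 to 4. The groups were far apart, and MT array 3 was the lowest of the MT arrays. The difference as measured was 1.34 ± 0.09 (limma adjusted p = 1.2e-06). The other probe set, 1418648_at, read 5.24, 5.10, 5.12 and 5.23 in wild type and 6.55, 5.97, 5.92 and 6.54 in MT. Here the wild-type arrays lay close together, whereas the MT arrays fell into 2 high ones, arrays 1 and 4, and 2 lower ones, arrays 2 and 3. The difference as measured was 1.07 ± 0.14 (limma adjusted p = 0.000145). Between the 2 probe sets the difference varied by 0.27, which did not pass an exact permutation test over the arrays (two-sided p = 0.171). No wild-type array exceeded the highest bacterial control at either probe set, so the fold is a lower bound. Set against that control in place of the lower wild-type value, the MT mean was at least 1.84-fold higher at 1418649_at. At 1418648_at it was at least 1.44-fold higher. Both bounds compare group means and carry no error. At 1418648_at, MT arrays 2 and 3 read 5.97 and 5.92, little above that control, which reached 5.86.

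Bnip3, a mitochondrial outer membrane protein of the BH3-only group that recruits the autophagy machinery to mitochondria, rose slightly from a high level. It read 9.63, 9.90, 9.99 and 9.79 on wild-type arrays 1 to 4, and 10.25, 10.21, 10.19 and 10.10 on the MT arrays. The MT arrays lay close together and above the highest wild-type array. The difference was 0.36 ± 0.08, or 1.28-fold (limma adjusted p = 0.0055). Egln3 and Bnip3 were the only members that rose.

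The promoters of these 2 genes, and of 2 members that fell, are shown as a place where HIF could act on transcription directly. Sequence beyond the bases shown was not searched. The bases are the 250 before the start site in RefSeq on GRCm38.p6, 5′ to 3′ on the strand of the gene, and capitals mark each core of the hypoxia response element, ACGTG or GCGTG, which reads CACGT or CACGC when it lies on the other strand. Egln3 lies on the minus strand, chr12:54203875-54204124; Bnip3 on the minus strand, chr7:138909507-138909756; Egln1 on the minus strand, chr8:124949255-124949504; and Adm on the plus strand, chr7:110627407-110627656.
Egln3: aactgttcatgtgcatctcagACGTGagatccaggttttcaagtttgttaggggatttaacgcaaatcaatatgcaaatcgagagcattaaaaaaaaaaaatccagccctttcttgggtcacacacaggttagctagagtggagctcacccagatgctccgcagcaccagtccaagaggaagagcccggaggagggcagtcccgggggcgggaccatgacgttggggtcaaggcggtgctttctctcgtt
Bnip3: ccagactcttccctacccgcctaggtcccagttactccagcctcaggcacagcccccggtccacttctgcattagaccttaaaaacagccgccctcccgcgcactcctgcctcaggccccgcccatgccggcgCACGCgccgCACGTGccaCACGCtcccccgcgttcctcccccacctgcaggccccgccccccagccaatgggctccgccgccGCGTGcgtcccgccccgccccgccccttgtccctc
Egln1: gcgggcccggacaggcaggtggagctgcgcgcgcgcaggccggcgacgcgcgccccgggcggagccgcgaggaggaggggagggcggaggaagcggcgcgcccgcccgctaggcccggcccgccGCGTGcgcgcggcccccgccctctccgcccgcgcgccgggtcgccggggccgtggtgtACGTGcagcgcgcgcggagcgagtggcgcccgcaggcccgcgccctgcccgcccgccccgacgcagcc
Adm: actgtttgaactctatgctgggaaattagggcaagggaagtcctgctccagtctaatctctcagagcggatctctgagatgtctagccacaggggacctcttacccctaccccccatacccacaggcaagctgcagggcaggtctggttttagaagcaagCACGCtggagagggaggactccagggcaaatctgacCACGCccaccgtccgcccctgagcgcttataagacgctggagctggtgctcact

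The Egln3 window held 1 core, an ACGTG that begins 229 bases before the start site. The Bnip3 window held 5 cores between 117 and 35 bases before the start, 2 of which overlap in a CACGTG, a palindrome that is also the E-box bound by MYC and by clock factors. The Egln1 window held a GCGTG and an ACGTG, and the Adm window held GCGTG on the other strand at 2 places. The promoter table had an entry for all 9 genes, and 2 for Vegfa. Of these 10 windows 9 held at least 1 core, and 8 held an ACGTG on either strand. Among all 32851 windows of the same length in that table, 38.6% held at least 1 core and 16.6% held an ACGTG. At least 2 cores stood in 16.7% of all windows, and at least 5 in 1.01%. Each core contains a CG, and the CG count of the member windows ran from 5 (Car9) to 51 (Egln1). The shares over all windows were not matched for CG content, so no enrichment is read from these counts. The window of the first Vegfa start held no core, which says only that these letters are not in this window. That window is chr17:46032378-46032627 on the minus strand. The second Vegfa window, chr17:46025164-46025413, lies downstream of the first start, and its cores count among those above. Members that rose, that fell and that did not pass all had windows with cores. A match of letters is a description, and no binding was measured.

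**Figure D2:**
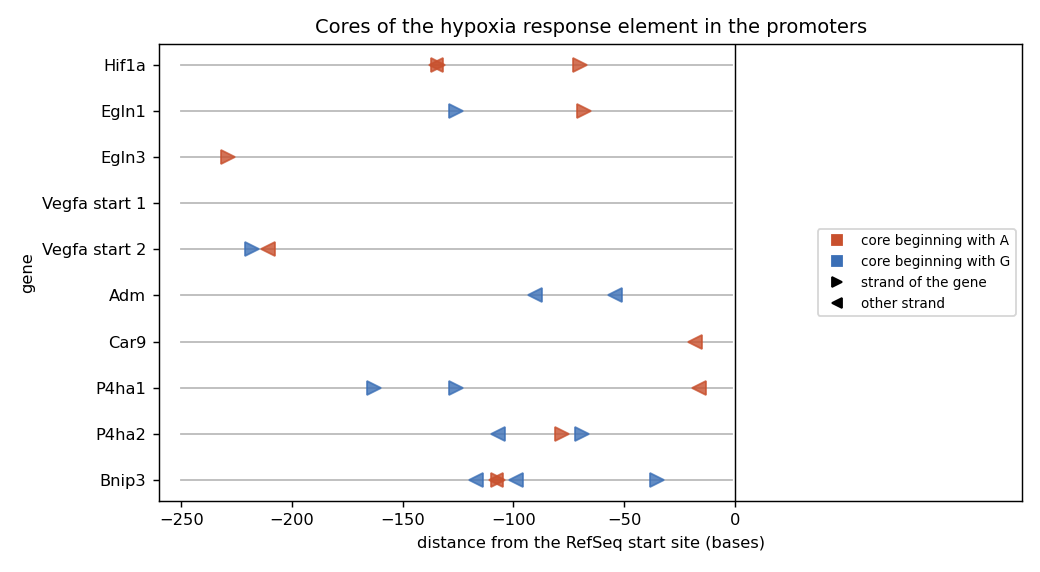
Positions of hypoxia response element cores in the 250 bases before the RefSeq start site of each gene (horizontal axis: distance from the start site in bases; 1 line per start site). Arrowheads give the strand and colours the first letter of the core; Bnip3 has 5 cores, Egln3 1, far from the start, and the first Vegfa start none.

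Hif1a, the oxygen-regulated subunit of HIF-1, was lower at 3 of its 4 probe sets. The probe set with the highest level, 1427418_a_at, read 9.44, 9.46, 9.44 and 9.46 on the wild-type arrays and 9.20, 9.19, 9.12 and 9.08 on the MT arrays. The wild-type values were almost identical, and all MT values lay below them. The difference was small but well above that spread, -0.30 ± 0.06 (limma adjusted p = 0.00207), a level in MT that was 0.812 of that in wild type. At 1416035_at, with 6.21, 6.40, 6.50 and 6.28 in wild type and 6.11, 5.89, 6.10 and 6.16 in MT, the difference was -0.28 ± 0.09 (limma adjusted p = 0.022). The gap between the groups at this probe set was narrow, and the call was lost without wild-type array 3 (-0.23, adjusted p = 0.0566) or MT array 2 (-0.23, adjusted p = 0.068). At 1448183_a_at, with 6.66, 6.58, 6.55 and 6.29 in wild type and 6.26, 6.23, 6.33 and 5.94 in MT, the difference was -0.33 ± 0.10 (limma adjusted p = 0.0255). Its groups overlapped through wild-type array 4 and MT array 3, and its call was lost without wild-type arrays 1 (adjusted p = 0.0684), 2 (0.0545) or 3 (0.0542) or MT array 4 (0.0717), left out singly. The fourth probe set, 1431981_at, read between 4.90 and 4.93 in wild type, inside the MT range of 4.80 to 5.11, with a difference of 0.00 ± 0.07 (limma adjusted p = 0.985, 95% confidence interval -0.16 to 0.17). This is the Hif1a probe set that did not exceed the highest control on any array.

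Egln1, the main prolyl hydroxylase that sets HIF alpha stability under normal oxygen, went the other way from Egln3 at 1 probe set. At 1423785_at it read 8.84, 8.98, 8.86 and 8.87 on the wild-type arrays and 8.47, 8.34, 8.19 and 8.35 on the MT arrays. Every MT array was lower than every wild-type array. The difference was -0.55 ± 0.07 (limma adjusted p = 0.000139), the largest fall among the 16 probe sets, to 0.682 of the wild-type level. At 1451110_at it read 8.35, 8.31, 8.09 and 8.23 in wild type and 8.17, 8.09, 8.22 and 8.11 in MT, and the groups overlapped. There the difference was -0.09 ± 0.07 (limma adjusted p = 0.359, 95% confidence interval -0.25 to 0.07). Both probe sets carry the same accession in the platform annotation and are well above the controls. Their differences varied by 0.46, at an exact permutation p of 0.0286 (two-sided), the smallest that 70 assignments of the arrays can give, and 0.0952 after adjustment over the 10 pairs of probe sets of a shared gene. These pairs were compared after the values had been seen. The fall of Egln1 thus rests on 1 of its 2 probe sets.

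**Figure D3:**
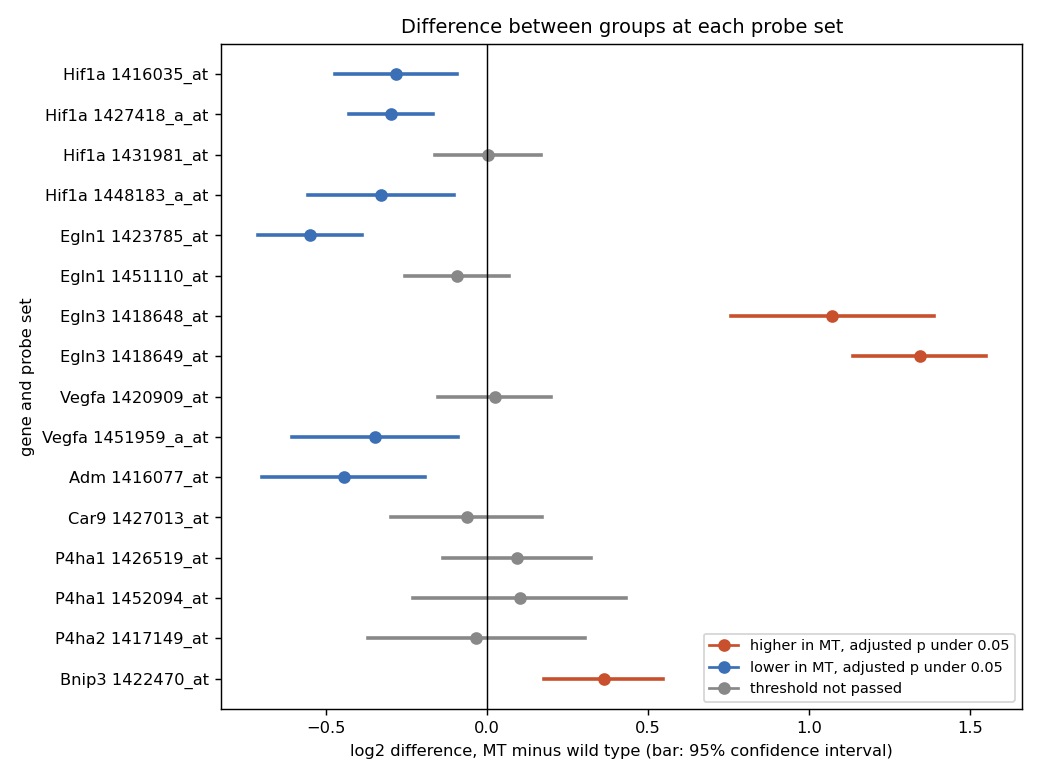
Log2 difference, MT minus wild type, of the 16 probe sets (points) with 95% confidence intervals of the limma fit (bars), coloured by call. The 2 Egln3 intervals start at 0.76 and 1.14, the 6 that lie wholly below 0 belong to Hif1a, Egln1, Vegfa and Adm, and both Egln1 and Vegfa have a second probe set whose interval includes 0.

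The secreted members were lower or did not pass. Vegfa, the growth factor that drives blood vessel sprouting, read 7.24, 7.25, 6.93 and 6.73 on the wild-type arrays and 6.85, 6.59, 6.63 and 6.68 on the MT arrays at the probe set 1451959_a_at. Wild-type arrays 1 and 2 were high, and wild-type array 4 lay within the MT range. The difference was -0.35 ± 0.12 (limma adjusted p = 0.0354). The call was lost without wild-type arrays 1 (adjusted p = 0.0943) or 2 (0.0874) or MT arrays 2 (0.0932), 3 (0.0857) or 4 (0.0742), left out singly, and on averaging the 2 probe sets (-0.16, adjusted p = 0.145). At the other probe set, 1420909_at, Vegfa read 6.70, 6.78, 6.82 and 6.65 in wild type and 6.91, 6.81, 6.74 and 6.59 in MT. The groups overlapped throughout, with a difference of 0.02 ± 0.08 (limma adjusted p = 0.847, 95% confidence interval -0.15 to 0.20). The 2 Vegfa probe sets differed by 0.37, at an exact permutation p of 0.0571 (two-sided; 0.114 adjusted over the 10 pairs).

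Adm, the vasodilator peptide adrenomedullin, read 5.07, 4.73, 5.19 and 4.77 in wild type and 4.61, 4.44, 4.30 and 4.62 in MT. The wild-type arrays 1 and 3 were the highest, and no MT array reached the lowest wild-type array. The difference was -0.45 ± 0.11 (limma adjusted p = 0.00986). Since Adm stayed under the highest control on all arrays, no fold is given.

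Car9, the membrane-bound carbonic anhydrase that serves as a marker of hypoxic tumour regions, read 5.27, 5.59, 5.74 and 5.49 in wild type and 5.32, 5.53, 5.35 and 5.63 in MT. The groups overlapped, with a difference of -0.06 ± 0.11 (limma adjusted p = 0.679). The 95% confidence interval, -0.30 to 0.17, holds no rise above 0.17 on the log2 scale, but 7 of 8 arrays did not exceed the highest control.

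The 2 catalytic subunits of collagen prolyl 4-hydroxylase did not pass. P4ha1 differed by 0.10 ± 0.15 at 1452094_at (limma adjusted p = 0.646; wild-type arrays spanned 6.63 to 7.39, MT arrays 6.94 to 7.34), and by 0.09 ± 0.10 at 1426519_at (limma adjusted p = 0.535). At both P4ha1 probe sets, wild-type arrays 1 and 2 read higher than wild-type arrays 3 and 4. P4ha2 read 7.69, 7.07, 7.01 and 7.65 in wild type and 7.33, 7.46, 7.18 and 7.31 in MT, so that wild-type arrays 1 and 4 were high and 2 and 3 low. Its difference was -0.03 ± 0.15 (limma adjusted p = 0.887, 95% confidence interval -0.37 to 0.30). The standard error at P4ha2 ranked at the 95.9th percentile of all probe sets, so that this interval is wide.

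Counts in the rest of the oxygen-sensing pathway were near those of all genes. Lists of neighbouring genes were counted by gene, each through its probe set of highest mean, over 12393 genes of which 19.7% were higher and 21.3% lower. Of 13 measured genes for HIF subunits, oxygen sensors, the VHL ligase and HIF co-activators, 2 were higher, 3 were lower and 8 did not pass, with a median of -0.02 against -0.01 over all genes. Cited2, which competes with HIF alpha for the co-activators CBP and p300, fell by 0.77 on the log2 scale (limma adjusted p = 0.000224). Epas1, the HIF-2 alpha subunit, had a difference of -0.56 ± 0.11 (limma adjusted p = 0.00137), from a level of 4.63 ± 0.24 in wild type. The third EGLN enzyme, Egln2, rose by 0.25 ± 0.08 (limma adjusted p = 0.0247), and Crebbp, which encodes CBP, by 0.39 ± 0.10 (limma adjusted p = 0.00978). Only 1 of the list was higher without wild-type array 3 or MT arrays 2 or 4. So the 3 EGLN genes differed in sign, with Egln3 and Egln2 higher and Egln1 lower at 1 of 2 probe sets. The rise of Egln2 did not pass at an adjusted p under 0.01. Arnt, the partner of HIF alpha, and Vhl did not pass, at 0.06 ± 0.08 and -0.14 ± 0.08, and were named after their values were seen.

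Counts among other genes that hypoxia induces were also near those of all genes. Of 34 measured, 9 were higher, 7 were lower and 18 did not pass, with a median of -0.07. Edn1, the vasoconstrictor peptide endothelin-1, rose from 6.63 ± 0.39 (SD, n = 4) to 9.57 ± 0.15 (SD, n = 4), a difference of 2.94 ± 0.16, while Adm, a peptide of the opposite vascular effect, fell. Plod2, a collagen lysyl hydroxylase, rose by 1.22 ± 0.08, the transferrin receptor Tfrc by 1.17 ± 0.15 and the chemokine receptor Cxcr4 by 1.05 ± 0.11, the limma adjusted p of all 4 being at most 9.92e-05. The largest falls, named after their values were seen, were those of the stanniocalcin Stc2 (-0.99 ± 0.11), of Angptl4, an inhibitor of lipoprotein lipase (-0.69 ± 0.16), and of the stanniocalcin Stc1 (-0.64 ± 0.11). In glycolysis, by contrast, 13 of 17 were higher and 0 lower, with a median of 0.68. With unique-type probe sets alone, a smaller set of genes, 7 were higher, and without wild-type array 2, 1 glycolytic gene was lower. Aldoc (1.48 ± 0.09), the lactate exporter Slc16a3 (1.19 ± 0.13), Tpi1 (1.07 ± 0.07) and Pfkl (0.90 ± 0.09) had the largest rises. The difference between the glycolytic list and the 9 genes was not tested. Among genes named here from lists, Epas1 and Calcrl in both groups, Cxcr4, Slc16a3, Car13 and S100a8 in wild type, and Vegfd and P3h3 in MT stayed under 5.55, the lowest reading of the highest control, so their differences are given as measured, with no fold.

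**Figure D4:**
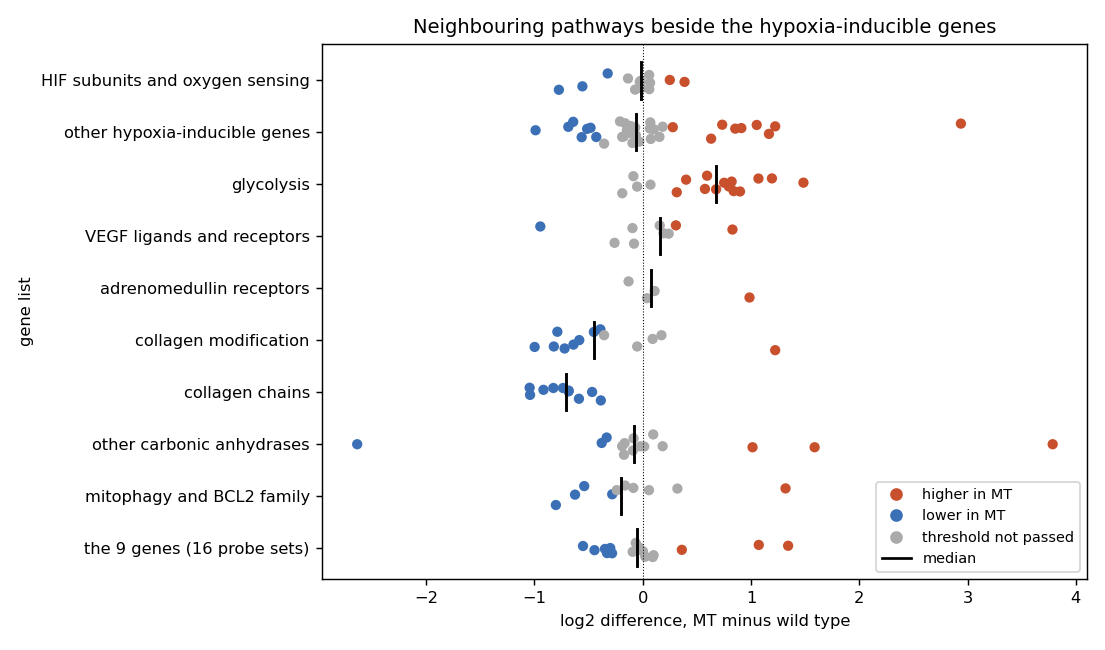
Log2 difference, MT minus wild type (horizontal axis), of each measured gene in 9 lists and of the 16 probe sets of the 9 genes (bottom line); colours give the call and black bars the medians. The glycolysis line lies mostly to the right, with a median of 0.68, and the collagen lines mostly to the left, with medians of -0.45 and -0.71, while the 9 genes centre on -0.05.

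Partners of single members are given beside them. For Vegfa, 2 of 9 other VEGF ligands and receptors were higher and 1 lower: Vegfb rose by 0.31 ± 0.07 (limma adjusted p = 0.00424), and the lymphatic factor Vegfd had a difference of -0.95 ± 0.15 (limma adjusted p = 0.000445). The third was the co-receptor Nrp1 (0.83 ± 0.20, groups overlapping), named after its value was seen. Without wild-type array 2, 2 were lower. For Adm, 1 of 4 measured genes in a list of receptor components was higher and 3 did not pass. The 1 was Ramp1 (0.99 ± 0.13, limma adjusted p = 8.32e-05), which pairs with Calcrl to form the receptor for CGRP, a different peptide. Calcrl itself, named after its value was seen, differed by 0.04 ± 0.11.

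For Car9, 3 of 15 other carbonic anhydrases were higher and 3 lower. Car2, a cytosolic form, rose from 7.68 ± 0.23 (SD, n = 4) to 11.46 ± 0.11 (SD, n = 4), a difference of 3.79 ± 0.11 (limma adjusted p = 2.43e-09). Car8 (1.59 ± 0.30) and Car13 (1.01 ± 0.08) also rose and Car14 fell (-0.38 ± 0.08). The other two that fell, named after their values were seen, were Car11 (-0.33 ± 0.08) and Car3, whose difference of -2.64 ± 0.74 (limma adjusted p = 0.0142) was the largest fall of the list, with groups that overlapped (7.60 to 10.96 in wild type, 5.78 to 8.89 in MT). For Bnip3, 1 of 10 measured mitophagy and BCL2 family genes was higher and 4 lower, and without wild-type array 4, 2 were higher. The mitophagy receptor Fundc1 (-0.80 ± 0.07), the kinase Pink1 (-0.54 ± 0.10) and the Bnip3-binding GTPase Rheb (-0.62 ± 0.07) fell, and the pore-forming Bak1 rose (1.32 ± 0.16).

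For P4ha1 and P4ha2, genes of collagen modification were mostly lower, 8 of 13 with 1 higher, at a median of -0.45. The prolyl 3-hydroxylase complex genes P3h4 (-0.998 ± 0.10) and P3h3 (-0.82 ± 0.09) and the isomerase Ppib (-0.79 ± 0.06) fell, and the 1 that rose was Plod2. The collagen chains were lower for 10 of 10, with a median of -0.71, led by Col6a1 (-1.04 ± 0.17), Col6a3 (-1.04 ± 0.20), Col3a1 (-0.92 ± 0.17) and Col1a1 (-0.74 ± 0.18). Beside these, the confidence intervals of P4ha1 (1452094_at) and P4ha2 had lower ends of -0.23 and -0.37; the difference between enzyme subunits and collagen chains was not tested.

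Genes with the profile most like that of a member over the 8 arrays were found by the root mean square difference of centred log2 values. Closest to Egln3 were the zinc finger factor Klf6 (0.0944, against a median of 0.697 over 12392 genes) and the small heat shock protein Hspb1 (0.102). Klf6 rose by 1.29 ± 0.08 and Hspb1 by 1.34 ± 0.10. Closest to the Vegfa probe set 1451959_a_at were Tesk1 (0.0566) and Sbds (0.0824), with differences of -0.26 ± 0.10 and -0.43 ± 0.09, where the median was 0.275. Closest to Adm were Ankrd49 (0.0795) and Ampd2 (0.0883), at -0.46 ± 0.12 and -0.45 ± 0.09, where the median was 0.301. This measure takes in the difference between the groups, so genes with a like difference score as near.

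Markers of several cell types differed between the groups beside these results. The labelled tissue held the secretory gene Pbsn at 13.28 ± 0.38 (SD, n = 4) in wild type and 9.12 ± 0.68 (SD, n = 4) in MT, and 4 of 5 measured prostate secretory genes were lower, with 1 higher. Luminal epithelial markers were higher for 10 of 10, with a mean level from 10.49 to 10.67 on the wild-type arrays and from 11.48 to 11.63 on the MT arrays; Elf3 led them (1.76 ± 0.08). Smooth muscle markers were lower for 9 of 9 (mean level 9.18 to 9.91 against 8.13 to 8.96; Myl9, -1.24 ± 0.23) and fibroblast markers for 6 of 8 (7.82 to 8.51 against 6.96 to 7.35; Dpt, -2.11 ± 0.17). Basal epithelial markers were lower for 3 of 4 (7.15 to 7.79 against 6.56 to 6.72; Krt15, -1.35 ± 0.19). Endothelial markers, the cells on which Vegfa and Adm act, overlapped between groups, with 1 of 9 lower and mean levels of 5.09 to 5.31 (wild type) against 5.08 to 5.18 (MT), and 2 were lower without wild-type array 2 or MT array 3. These mean levels were under 5.55, the lowest reading of the highest control, so a difference in endothelial markers may be understated or missed. Of 10 macrophage markers, 5 were higher and 2 lower (6.32 to 7.02 against 6.83 to 7.04; C1qc, 0.95 ± 0.20), with 8 higher without wild-type array 4, and with 0 lower without MT array 1 and 1 without wild-type array 3 or MT array 4. Of 6 neutrophil markers, 3 were higher (4.59 to 4.70 against 5.53 to 5.98; S100a8, 3.33 ± 0.14). Of 3 measured red cell markers, 1 was lower (5.04 to 5.27 against 4.79 to 5.08; Alas2, -0.60 ± 0.14). The mean red cell levels in both groups, and the mean neutrophil levels in wild type, were also under 5.55. In such bulk samples, fewer cells of a type and less RNA per cell cannot be told apart, and the part of these marker differences in the differences of the 9 genes was not tested. The gap between 3' and 5' probe sets of Gapdh, a sign of RNA quality, was 0.545 to 0.918 in wild type and 0.452 to 0.640 in MT, widest on wild-type array 4; that of Actb was 0.715 to 1.05 and 0.569 to 0.849.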

How the data were processed

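Per the labels' protocols, a Trizol extraction with RNeasy clean-up gave the total RNA, which was biotin-labelled for 8 Affymetrix arrays. The deposited log2 values were made by the authors with RMA, per the submitters' processing notes, which name no version. RMA in its usual form corrects background, quantile-normalizes arrays and summarizes probes; the quantile step gives all arrays one distribution, so a shift of all genes together would not be seen. They were used as deposited, with no filter on low values; array medians ran from 6.21 to 6.23. For arrays, their number limits the precision.

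Of 22690 rows, 64 were controls. The platform annotation gave 20380 of the others 1 gene symbol, 691 several and 1555 none; 20351 identifiers matched the reference gene table, which changed 0 symbols. Differences were tested with limma 3.58.1 in R 4.3.3 (lmFit and eBayes, two-sided, no covariate) over 22626 probe sets, and for lists over 12393 genes, each by its single-symbol probe set with the highest mean. Probe sets of a shared gene were compared by an exact permutation test over arrays. Data were simulated for this comparison (MT minus wild type, 22626 probe sets), with 200 probe sets changed per simulated set. There the fit recovered 17.6% of changes of 0.3, 61.2% of 0.5 and 96.7% of 1 on the log2 scale, and 4.27% of calls were false. In the real data 8552 probe sets passed, and the adjusted threshold depends on that share. These rates therefore hold for the simulated setting and are not those of the real comparison.

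The members and lists were chosen with earlier results of these data known. Of each pathway list, up to 4 genes with the largest change past the threshold and no overlap between groups were named, of each marker list 1, and for Egln3, Vegfa and Adm the 2 genes of most like profile. Alternatives were a replicate block, weighted arrays, a trended prior, renewed scaling, a stricter threshold, removal of probe sets below the median level, 3 other ways to choose or average probe sets and leaving out each array. Python 3.11.15, pandas 2.3.3 and matplotlib 3.10.9 read the promoter table and drew the plots.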

Additional observations from a re-analysis of the deposited data

How the results depend on the processing

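The 2 Egln3 probe sets, Bnip3, Adm, Egln1 at 1423785_at and Hif1a at 1427418_a_at kept their direction and call under every alternative in which they were tested. The number of the 16 probe sets that were higher stayed at 3 and the number lower at 6 with a replicate block, another prior, array weights and both renewed scalings. Leaving out single arrays gave 3 to 3 higher and 4 to 6 lower. At an adjusted p under 0.01, 3 were lower; 3 were lower among unique-type probe sets (names ending in _at with no letter before it) and 3 genes with probe sets averaged; with the filter at the median level, which removes Egln3, 1 was higher. Over all pathway lists 31 genes were higher and 36 lower, and leaving out single arrays gave 29 to 31 and 33 to 40; among unique-type probe sets, which cover fewer genes, 20 were higher. The filter at the median level, with fewer genes tested, left 0 neutrophil genes higher, 0 VEGF and 0 red cell genes lower, 1 carbonic anhydrase and 1 macrophage gene lower, and 2 genes each of collagen modification and mitophagy higher. At an adjusted p under 0.01, 0 macrophage genes were lower and 1 oxygen-sensing gene was higher. Marker genes numbered 19 higher and 26 lower, or 18 to 22 and 24 to 27 without single arrays.

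Of the 7 differences that did not pass, 5 changed sign when single arrays were left out: Hif1a 1431981_at ranged from -0.062 to 0.041, Vegfa 1420909_at from -0.025 to 0.080, Car9 from -0.148 to 0.0079, P4ha1 1452094_at from -0.046 to 0.206 and P4ha2 from -0.150 to 0.078. Egln1 1451110_at (-0.145 to -0.057) and P4ha1 1426519_at (0.019 to 0.172) kept theirs. With array weights, Hif1a 1431981_at was at -0.0023. The cause was not tested.

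Arrays with the same number in the titles of both groups correlated in their deviations from the group means at 0.0782 to 0.164 over probe sets (0.104 to 0.184 over genes), each of the 8 arrays best with its own number. Arrays of unlike number correlated at a mean of -0.038 over probe sets. Centring each group on its own mean nearly fixes that value once the same-number correlations are given. It is therefore not a separate comparison. Not every correlation over probe sets exceeded 0.1 and no label states a shared source, so the numbers were not used as pairs. The level of 0.1 was a choice, and every same-number correlation over genes exceeded it. Whether same-number arrays share a source is not known. The exact permutation tests also took the arrays as unpaired, and were not repeated within numbers. Fewer assignments exist within numbers, so an exact permutation p of 0.0286 could not be reached there. With the replicate block, 8633 probe sets passed in place of 8552, with 3 of the 16 higher and 6 lower. In the lists, the block gave 2 VEGF genes lower in place of 1, 2 mitophagy genes higher in place of 1 and 2 oxygen-sensing genes lower in place of 3.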
